A study of Oryza sativa with 6 samples.

Results

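The 10 genes described here encode light-harvesting chlorophyll proteins and were followed in developing rice seed. They were picked by identifier, and all 10 were found among the 55986 loci of the deposited expression table. Dehulled seeds aged 10 to 14 days after flowering were used, from plants grown at 27 °C with 12 h of light and 12 h of dark. Total RNA was sequenced from 3 libraries of the wild-type cultivar ZH11 (WT-1 to WT-3) and 3 of rbpl (rbpl-1 to rbpl-3), a line with a knockdown of RBP-L, an RNA-binding protein. The design text calls the libraries of a group biological repeats without saying whether each came from its own plant. One rbpl line was set against the cultivar, so the knockdown and the descent of the line cannot be told apart.

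Light-harvesting chlorophyll proteins are encoded in the nucleus, imported into the plastid and loaded with chlorophyll in the thylakoid membrane, where they pass light energy to the photosystems. LHCB proteins serve photosystem II and LHCA proteins photosystem I, roles worked out largely in Arabidopsis and shared by land plants. In a cereal seed the starchy endosperm fills with starch and storage protein, while the young pericarp around it is green. The 10 genes were LHCB1 in 3 copies, LHCB2, LHCB3, LHCB5, LHCB6, LHCA1, LHCA2 and LHCA4. The LHCB1 copies are called here LHCB1a (LOC_Os01g41710), LHCB1b (LOC_Os09g17740) and LHCB1c (LOC_Os01g52240). The table holds identifiers only, so the names rest on the list by which the genes were chosen.

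All 10 genes were well covered, with between 8588 and 180056 reads per gene and library, and all passed the filter on low levels. These reads were recovered from the RPKM values, which are reads scaled to gene model length and library depth and so allow levels to be compared between genes. Library totals ranged from 44187374 to 50714582 reads. By mean RPKM, LHCB1a ranked 18 among the 17507 loci tested, and 5 of the 10 genes were among the first 100. The lowest was LHCB5, at rank 571. The locus taken as RBP-L (LOC_Os04g53440) was at 56.9 ± 5.79 RPKM in the wild type and 14.9 ± 0.481 RPKM in rbpl (SD, n = 3 each), the direction the labels give (limma, log2 fold change −1.86, adjusted p = 0.000159). The 14 loci listed for endosperm, by identifiers assigned from general knowledge, were all expressed, with single values from 21.1 to 7158 RPKM. One wild-type library, WT-1, was unlike the others at many loci. In it, 17.5% of tested loci were 1.5-fold or more from WT-2 and from WT-3. The same share was 1.87% for WT-2, 1.82% for WT-3, 1.43% for rbpl-1, 1.37% for rbpl-2 and 1.98% for rbpl-3. Results are therefore given with and without WT-1.

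All 10 genes had a higher mean in rbpl than in the wild type, by 1.33-fold for LHCB1a to 1.81-fold for LHCB1c, while rbpl was higher at 42.8% of tested loci. None of them passed the test with all 6 libraries (limma, adjusted p below 0.05, 0 of 10), against 3.46% of tested loci called higher in rbpl and 6.56% called in either direction. By unadjusted p, 9 of 10 were below 0.05, against 9.41% of tested loci with rbpl higher, and limma-voom on recovered reads called 1, against 3.31% called higher. WT-1 was the lowest of the 6 libraries for all 10 genes, as for 23.9% of tested loci. Without WT-1, 8 of 10 rose in rbpl, against 8.51% of tested loci. In whole seeds, more cells of a type and more RNA per cell cannot be told apart.

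**Figure D1:**
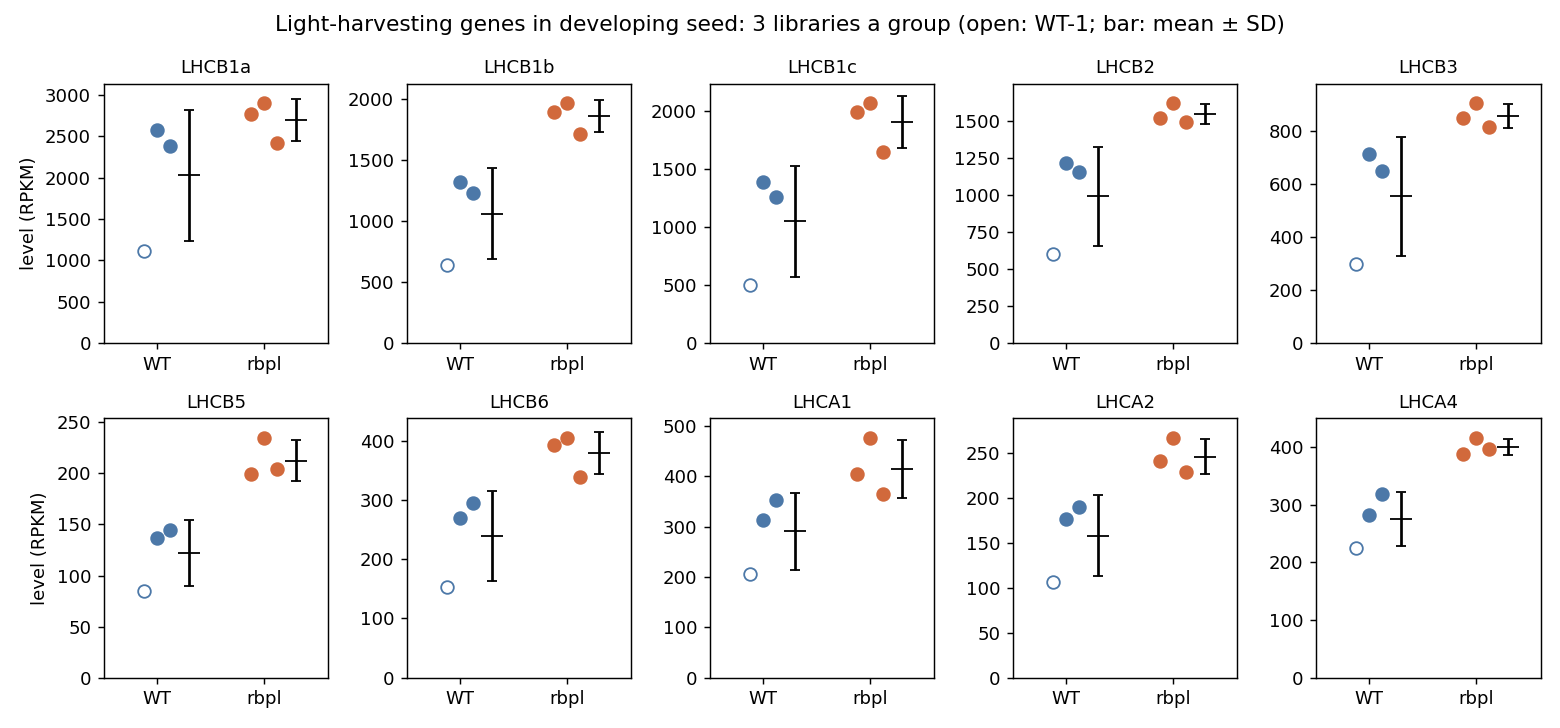
Level in RPKM (linear axes from 0) of each light-harvesting gene in 3 wild-type and 3 rbpl libraries, with WT-1 as an open circle and the mean ± SD beside the points. WT-1 is the lowest of the 6 libraries in all 10 panels, and the groups overlap only for LHCB1a.

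LHCB1, LHCB2 and LHCB3 form the trimers of the main antenna of photosystem II. LHCB1a, on chromosome 1, was at 1114, 2582 and 2382 RPKM in the wild type and at 2773, 2904 and 2413 RPKM in rbpl. Values are given throughout in the order of the replicate numbers, so that the first of each wild-type set is WT-1. Its groups overlapped, since rbpl-3 lay below WT-2. Its log2 fold change was 0.50 ± 0.30 (standard error, adjusted p = 0.378 by limma). Without WT-1 it was 0.12, with a 95% interval from −0.11 to 0.34, which includes 0, and an adjusted p of 0.476.

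LHCB1b, on chromosome 9, was at 635, 1319 and 1228 RPKM in the wild type and at 1894, 1971 and 1718 RPKM in rbpl. LHCB1c, on chromosome 1, was at 503, 1389 and 1255 RPKM in the wild type and at 1988, 2067 and 1647 RPKM in rbpl. For both copies each rbpl library lay above each wild-type library. With all 6 libraries the log2 fold changes were 0.88 ± 0.26 and 0.98 ± 0.35 (standard errors), with adjusted p of 0.0966 and 0.159 by limma. Without WT-1 both rose, by log2 fold changes of 0.55 (adjusted p = 0.00190) and 0.52 (adjusted p = 0.00718).

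LHCB2, on chromosome 3 (LOC_Os03g39610), was at 603, 1211 and 1153 RPKM in the wild type and at 1519, 1619 and 1488 RPKM in rbpl. LHCB3, on chromosome 7 (LOC_Os07g37550), was at 298, 713 and 651 RPKM in the wild type and at 851, 907 and 815 RPKM in rbpl. In both genes the rbpl libraries lay close together and above all wild-type libraries. The adjusted p with all 6 libraries was 0.157 for LHCB2 and 0.214 for LHCB3 by limma. Both rose without WT-1, with log2 fold changes of 0.38 (adjusted p = 0.00966) and 0.33 (adjusted p = 0.0249).

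LHCB5 and LHCB6 are minor, monomeric antenna proteins that sit between the trimers and the core of photosystem II. LHCB5, on chromosome 11 (LOC_Os11g13890), was at 85.0, 137 and 144 RPKM in the wild type and at 199, 235 and 204 RPKM in rbpl. It came closest to the threshold with all 6 libraries, with a log2 fold change of 0.83 ± 0.20 (standard error) and an adjusted p of 0.0520 by limma. With limma-voom on recovered reads the adjusted p was 0.0436. LHCB6, on chromosome 4 (LOC_Os04g38410), was at 153, 270 and 295 RPKM in the wild type and at 393, 406 and 338 RPKM in rbpl. The groups did not overlap for either gene, and without WT-1 both rose, by log2 fold changes of 0.59 (adjusted p = 0.00130) and 0.42 (adjusted p = 0.0124).

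LHCA1, LHCA2 and LHCA4 belong to the antenna belt of photosystem I, in which, in Arabidopsis, LHCA1 pairs with LHCA4. LHCA1, on chromosome 6 (LOC_Os06g21590), was at 206, 313 and 352 RPKM in the wild type and at 404, 477 and 364 RPKM in rbpl, with rbpl-3 just above WT-3. It did not pass the test with or without WT-1 (adjusted p = 0.185 and 0.0894 by limma), but without WT-1 limma-voom gave an adjusted p of 0.0357. Its log2 fold change without WT-1 was 0.31 by limma, with a 95% interval from 0.06 to 0.56. LHCA2, on chromosome 7 (LOC_Os07g38960), was at 106, 177 and 190 RPKM in the wild type and at 242, 267 and 229 RPKM in rbpl. LHCA4, on chromosome 8 (LOC_Os08g33820), was at 226, 283 and 319 RPKM in the wild type and at 389, 417 and 396 RPKM in rbpl. Each rbpl library lay above each wild-type library for all 3 LHCA genes. LHCA2 and LHCA4 rose without WT-1, by log2 fold changes of 0.42 (adjusted p = 0.00909) and 0.41 (adjusted p = 0.00724), after adjusted p of 0.114 and 0.0619 with all 6 libraries.

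**Figure D2:**
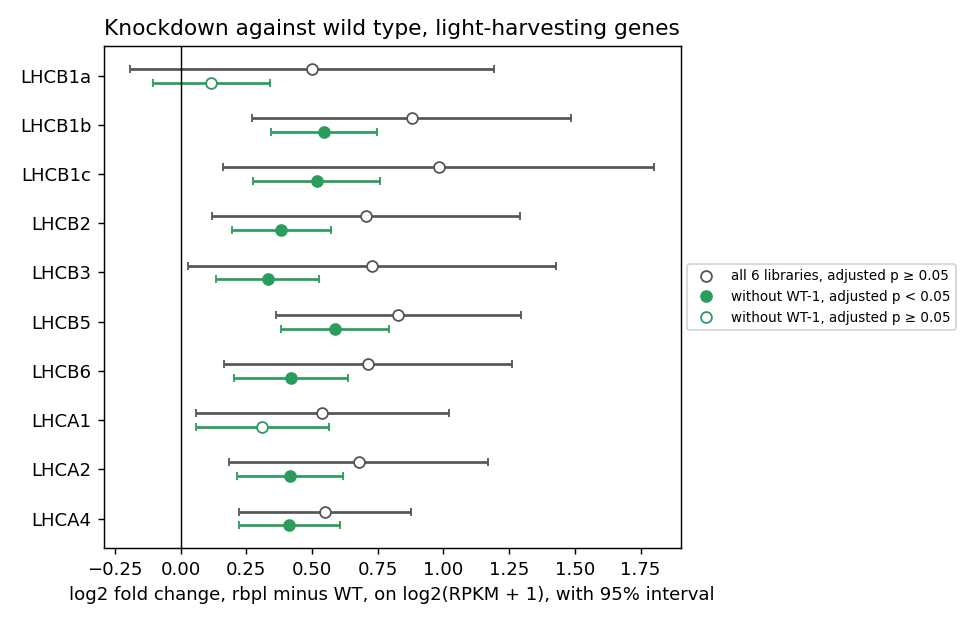
Log2 fold change of rbpl against the wild type on log2(RPKM + 1), with 95% intervals from limma, for each gene with all 6 libraries (grey) and without WT-1 (green). Filled points have an adjusted p below 0.05, which 0 of 10 genes reach with all 6 libraries and 8 of 10 without WT-1.

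Over the 10 genes the median log2 fold change was 0.71 with all 6 libraries and 0.41 without WT-1, against −0.04 and −0.02 over all tested loci. For 9 genes the groups did not overlap and rbpl was higher, as at 12.2% of tested loci. The exact permutation test gave p = 0.1 for these 9, the smallest that 3 against 3 libraries allow, and p = 0.2 for LHCB1a (two-sided). Leaving out WT-1 lowered the median change but also lowered the median standard error, from 0.24 to 0.09. The 8 calls made without WT-1 became 3 when WT-2 was left out as well and 5 when WT-3 was, each with a lone wild-type library assumed to vary like the rest. LHCB1b and LHCB5 were below 0.05 in both cases. For the 10 genes, log2 fold changes in the authors' deposited table run from 0.41 to 0.86, and 7 have an unadjusted p below 0.05. The share is 13.7% over all 32287 loci with a p there, in either direction and with no filter on low levels. The share of those loci with rbpl higher was not counted.

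The 10 genes differed in how far WT-1 lay below the other wild-type libraries. Relative to the mean of WT-2 and WT-3, its level was 38.0% for LHCB1c, 43.7% for LHCB3, 44.9% for LHCB1a, 49.9% for LHCB1b and 51.0% for LHCB2. It was 54.3% for LHCB6, 57.9% for LHCA2, 60.3% for LHCB5, 61.9% for LHCA1 and 75.0% for LHCA4. The trimer genes LHCB1, LHCB2 and LHCB3 were thus the 5 lowest and LHCA4 was the least low. WT-1 lay at least 1.5-fold below both other wild-type libraries for 9 of 10 genes, the exception being LHCA4, against 11.3% of tested loci. No other library lay 1.5-fold from both others of its group for any of the 10. WT-3 differed less from WT-2, between 0.903 times for LHCB1c and 1.13 times for LHCA4. Within rbpl the coefficient of variation ran from 3.59% for LHCA4 to 13.8% for LHCA1, and rbpl-2 was the highest of the 6 libraries for all 10 genes, as for 11.0% of tested loci.

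The 7 LHCB genes together were at 3391, 7621 and 7108 RPKM in the wild type and at 9617, 10110 and 8623 RPKM in rbpl. The 3 LHCA genes together were at 538, 773 and 861 RPKM in the wild type and at 1034, 1161 and 989 RPKM in rbpl. In both sums WT-1 was lowest and each rbpl library was above each wild-type library. The ratio of the LHCB to the LHCA sum was 6.30, 9.85 and 8.25 in the wild type and 9.30, 8.71 and 8.72 in rbpl. The ratio therefore overlapped between the groups, with WT-1 at the low end and WT-2 at the high end. The 10 genes made up 0.648%, 1.39% and 1.30% of the summed RPKM of all loci in the wild type and 1.70%, 1.82% and 1.57% in rbpl.

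The order of the genes by mean level was the same in rbpl as in WT-2 and WT-3, with LHCB1a first, then LHCB1c, LHCB1b, LHCB2, LHCB3, LHCA1, LHCA4, LHCB6, LHCA2 and LHCB5. In rbpl the ranges of LHCB1c and LHCB1b overlapped, as did those of LHCA1 with LHCA4, LHCA4 with LHCB6, and LHCA2 with LHCB5. The other neighbours in the order did not overlap. With WT-1 included the wild-type range of each gene overlapped that of the next, and the means of LHCB1b and LHCB1c changed places.

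Among the 3 LHCB1 copies, the share of LHCB1a was lower in each rbpl library than in each wild-type library, WT-1 included. LHCB1a held 49.5%, 48.8% and 49.0% of the summed LHCB1 level in the wild type and 41.7%, 41.8% and 41.8% in rbpl. The share in WT-1 was thus the highest of the 6, although the LHCB1a level itself was lowest there. LHCB1b held 28.2%, 24.9% and 25.2% in the wild type and 28.5%, 28.4% and 29.7% in rbpl, and LHCB1c 22.3%, 26.3% and 25.8% against 29.9%, 29.8% and 28.5%. Neither share overlapped between the groups, though WT-1 came close to rbpl for LHCB1b and was lowest for LHCB1c. As a ratio, LHCB1a was 1.88 ± 0.113 times LHCB1b in the wild type and 1.45 ± 0.0373 times in rbpl (SD, n = 3 each), without overlap. Against LHCB1c it was 1.99 ± 0.197 times and 1.42 ± 0.0381 times, also without overlap, while LHCB1c over LHCB1b overlapped. The exact permutation p was 0.1 for the first and second ratio and 0.7 for the third (two-sided, smallest possible 0.1). These 3 ratios were picked after the levels were seen, and p-values adjusted over them by Benjamini-Hochberg were 0.15, 0.15 and 0.7. The shares are parts of the same sum, and the first and second ratio both hold LHCB1a, so they are not separate results. How often ratios of other pairs of loci fail to overlap was not counted. A ratio within a library does not depend on the scaling between libraries. The copies of LHCB1 in plants are alike in sequence, and how reads that match several loci were counted is not given in the sources used here. Its part in these shares was not tested.

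**Figure D3:**
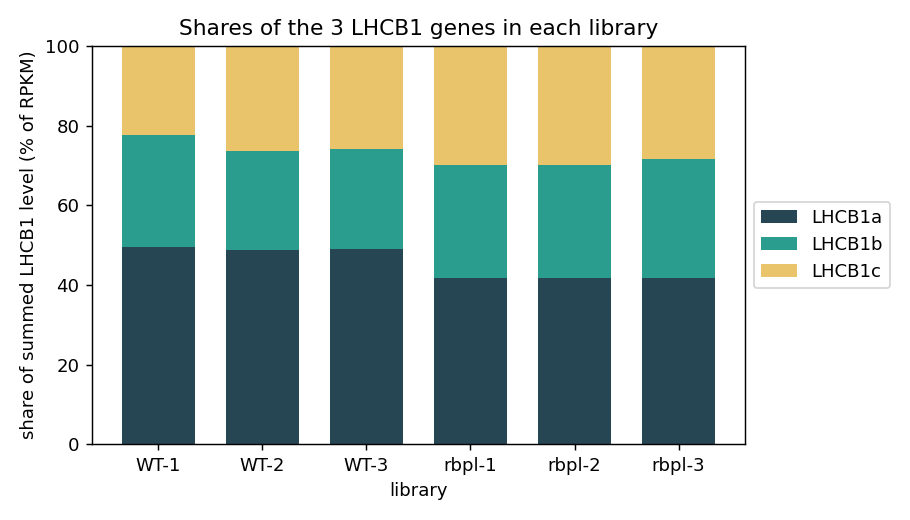
Share of the summed LHCB1 level (percent of RPKM, stacked to 100%) held by LHCB1a, LHCB1b and LHCB1c in each library. The LHCB1a share is 48.8% to 49.5% in the 3 wild-type libraries and 41.7% to 41.8% in the 3 rbpl libraries.

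Outside LHCB1, the ratio overlapped between the groups in each pair of genes given here. Other pairs of single genes outside LHCB1 were not compared. LHCB3 was 0.493, 0.589 and 0.564 times LHCB2 in the wild type and 0.560, 0.560 and 0.547 times in rbpl. LHCA1 was 0.911, 1.11 and 1.10 times LHCA4 in the wild type and 1.04, 1.14 and 0.918 times in rbpl. LHCB5 was 0.555, 0.509 and 0.490 times LHCB6 in the wild type and 0.506, 0.579 and 0.602 times in rbpl.

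Other genes of the photosynthetic apparatus were taken as lists of locus identifiers, assigned from general knowledge of the rice genome, because the files do not annotate them. They are therefore given as counts. Of 39 tested loci on 5 lists, 21 rose and 0 fell with all 6 libraries (limma, adjusted p below 0.05), against 3.46% of tested loci that rose and 3.10% that fell. Without WT-1, 30 rose and 0 fell, against 8.51% and 9.51%. The count of 21 became 13 when WT-2 was left out, 5 for rbpl-1, 5 for rbpl-2 and 8 for rbpl-3. It was 12 with no filter on low levels.

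Subunits of the 2 photosystems, the complexes that the antenna feeds, gave 11 of 15 tested loci that rose (median log2 fold change over the list 0.68). The Rubisco small subunit, part of the enzyme that fixes carbon dioxide, gave 4 of 4, with a median of 0.56. Enzymes of chlorophyll synthesis gave 4 of 12, with a median of 0.44 and values from −0.26 to 1.01. The 6 other antenna loci, which include further LHCA and LHCB genes, gave 1 that rose, with a median of 0.69, close to the 0.71 of the 10 genes described here. Of the 2 loci listed for GLK regulators, transcription factors that drive photosynthesis genes, 1 rose. Without WT-1 the counts were 15 of 15, 4 of 4, 6 of 12, 4 of 6 and 1 of 2 in the same order of lists.

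WT-1 was not equally low across these lists. The Rubisco small subunit list summed to 369 RPKM in WT-1 against 362 and 385 RPKM in WT-2 and WT-3, so WT-1 lay between them. It summed to 574, 562 and 560 RPKM in rbpl. The photosystem subunit list summed to 1940, 2349 and 2482 RPKM in the wild type and to 3911, 3653 and 3505 RPKM in rbpl. The chlorophyll synthesis list summed to 207, 284 and 289 RPKM in the wild type and to 372, 388 and 377 RPKM in rbpl. The other antenna list summed to 576, 977 and 939 RPKM in the wild type and to 1425, 1312 and 1237 RPKM in rbpl. WT-1 was the lowest library at 5 of the 6 loci of the other antenna list, against 23.9% of tested loci. It was the lowest at 10 of 15 tested photosystem subunit loci and 8 of 12 for chlorophyll synthesis. For the Rubisco small subunit it was the lowest at 1 of 4, and for GLK regulators at 1 of 2. Relative to the mean of WT-2 and WT-3, WT-1 was thus at 0.460 for the LHCB genes, 0.658 for the LHCA genes, 0.723 for chlorophyll synthesis, 0.803 for photosystem subunits and 0.989 for Rubisco. The 10 genes summed to 2.03 times the photosystem subunit list in WT-1 and 3.57 and 3.21 times that list in the other wild-type libraries. In rbpl that ratio was 2.72, 3.08 and 2.74 times, so the groups overlapped.

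**Figure D4:**
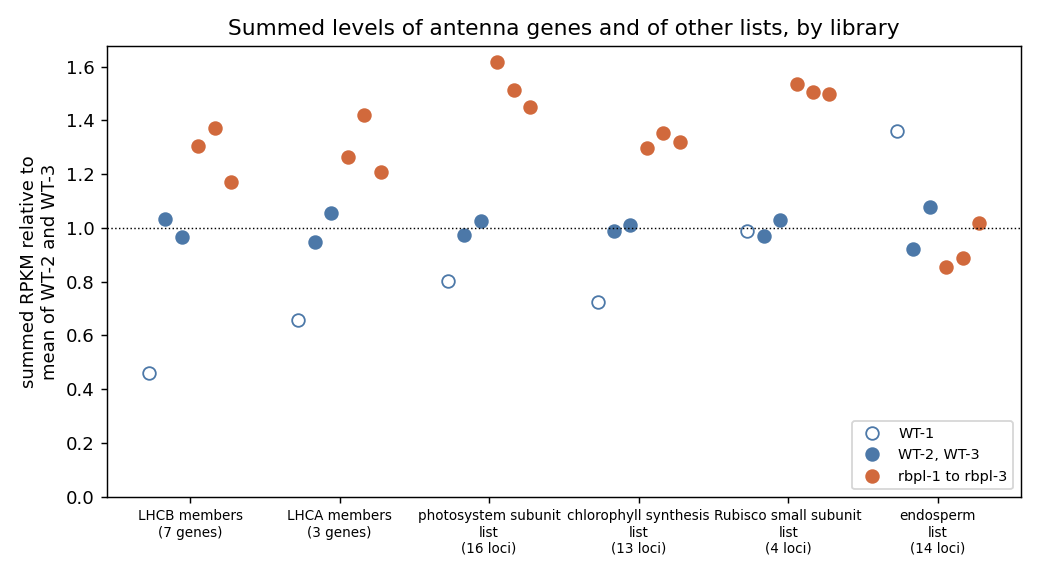
Summed RPKM of the LHCB and LHCA genes and of 4 lists in each library, divided by the mean of WT-2 and WT-3 (dotted line at 1). WT-1 (open) is at 0.460 for LHCB and at 0.989 for the Rubisco list, and above the other libraries at 1.36 for the endosperm list.

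Summed, the endosperm list went the other way in WT-1, though not at every locus. Its 14 loci summed to 37086, 25189 and 29398 RPKM in the wild type and to 23312, 24241 and 27785 RPKM in rbpl, with WT-1 highest of all 6 libraries. WT-1 was the highest library at 9 of the 14 loci, against 41.4% of tested loci, and the lowest at 1, against 23.9%. By locus, WT-1 was at 0.616 to 1.64 times the mean of WT-2 and WT-3, with a median of 1.26. None of the 14 was at or near 0 in any library. With all 6 libraries 0 of 14 passed limma's adjusted threshold, against 6.56% of tested loci, with 4 at an unadjusted p under 0.05. Without WT-1, 2 fell and 0 rose, against 9.51% and 8.51%, with 8 at an unadjusted p under 0.05. The share of all tested loci under that unadjusted p in either direction was not counted. With 14 loci, these counts cannot show whether the list is like or unlike all loci. How much green pericarp each library held was not measured, and its part in the light-harvesting levels was not tested.

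The profile over libraries was shared closely within the family. Each gene correlated with the mean log2 level of the other 9 at Pearson r between 0.946 for LHCA4 and 0.995 for LHCB2, over 6 libraries of which WT-1 carries much of the range. Of 17443 tested loci outside all lists, 423 (2.43%) had an r of at least 0.95 with the mean of the 10. The highest was LOC_Os06g05720 on chromosome 6, at 21.8, 26.0 and 25.9 RPKM in the wild type and at 27.9, 28.4 and 27.3 RPKM in rbpl (r = 0.999). LOC_Os10g40720 on chromosome 10 followed, at 720, 1038 and 1014 RPKM in the wild type and at 1214, 1264 and 1150 RPKM in rbpl (r = 0.999). Neither passed the test with or without WT-1, and the files name no product for them.

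Loci next to the 10 genes were counted as well, and their difference from all loci was not tested. With 100 loci, the counts cannot show whether these neighbours are like or unlike all loci. Among 100 such loci, the closest 5 tested ones before and after each gene, 10 were called with all 6 libraries, against 6.56% of tested loci. Without WT-1, 22 were called, against 18.0% in either direction, and 12 of the 100 rose, against 8.51%. Their median log2 fold changes per gene had a median of −0.04. LHCB5 was locus 329 of 811 tested on chromosome 11.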

How the data were processed

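The authors deposited 1 table of RPKM values per library with group means, ratio, log2 fold change and p-value, per the file headers. Libraries were made with a NEBNext Ultra kit, per the labels' protocols. The sources used here do not give the aligner, counter, build or annotation.

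The 17507 loci whose mean reached 1 RPKM in either group were tested on log2(RPKM + 1) by limma 3.58.1 (R 4.3.3, trend and robust, no covariates, two-sided), with Benjamini-Hochberg adjustment over all of them and a threshold of 0.05. Fold changes on this scale understate changes of low loci. Whole reads were recovered from the RPKM steps at 100% of the 32287 loci above 0, within 0.001 reads. Counts with a common divisor may come out too low by it. The reads gave the depths and served limma-voom. P-values set the difference between the groups against the spread between these libraries, which limma moderates over all tested loci. Replicate numbers do not pair the samples. The named genes were all 10 members, RBP-L and the 2 loci most like the mean of the 10. Members, lists and tests were chosen with earlier results of these data known. Python 3.11.15, scipy 1.17.1 and matplotlib 3.10.9 were used for the rest.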

Additional observations from a re-analysis of the deposited data

How the results depend on the processing

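The 10 genes kept a higher level in rbpl in all 130 combinations of gene and alternative, with log2 fold changes from 0.12 to 1.25. These combinations reuse the same libraries and are not independent. With all 6 libraries, a change of filter or the replicate block cannot alter the fold change of a gene, and did not. Without WT-1 the block did alter it, for LHCB5 from 0.59 to 0.63 and for LHCB1a from 0.12 to 0.09. The count of the 10 genes called was 0 in the main fit with all 6 libraries. It was 1 (LHCB5) with upper-quartile scaling and with limma-voom, also with all 6 libraries. With 1 library left out it was 0 to 8, the 8 being without WT-1. Starting without WT-1 the count of 8 became 5 with no filter, which tests more loci, 9 with limma-voom (LHCA1 added), and 3 to 8 when a further library was left out. The listed photosynthesis loci called numbered 21, 12 with no filter and 5 to 30 with 1 library left out. Over all loci 1148 were called, 660 with a filter of 5 RPKM, which tests fewer loci (10744), and 356 to 3130 with 1 library left out. RBP-L stayed past the threshold, with log2 fold changes from −1.93 to −1.79. Beyond the settings that change the set of loci or libraries, the cause was not tested. The replicate numbers are only shared: deviations of same-numbered libraries correlated at 0.0476, 0.259 and −0.380. With the replicate number as a block, 1 of the 10 genes (LHCB5), 16 listed loci and 963 loci in all were called, and RBP-L was at −1.86. The 10 genes had at least 8588 reads in every library, and fits at matched depth were not run.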
